A study of Homo sapiens with 12 samples.

Results

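The 10 genes of serine synthesis and folate-linked one-carbon metabolism were followed in TFK1, a human cholangiocarcinoma (bile duct cancer) cell line. They were PHGDH, PSAT1, PSPH, SHMT1, SHMT2, MTHFD1, MTHFD1L, MTHFD2, ALDH1L2 and ALDH18A1, chosen by symbol, and all 10 were found once each among the 58735 genes of the table. Expression is given as FPKM, fragments per kilobase of gene scaled for library depth. The definition of gene length is not given in the sources used here. Comparisons of level between genes rest on those lengths. A gene was tested when its mean over the libraries was at least 1 FPKM, which 13609 genes and 9 of the 10 passed. ALDH1L2, with a mean of 0.686 FPKM, did not pass.

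The cells, labelled wild type, were left untreated (control), irradiated with 6 Gy (radiation), given nab-paclitaxel at 1.62 ng/ml, or given both (combination). Nab-paclitaxel is paclitaxel, a drug that stabilises microtubules, bound to albumin. RNA was taken after 24 h, with 3 libraries in each of the 4 groups, and the series asked how the drug alters the response of this cancer to radiation. All groups shared the same line, one culture medium (RPMI 1640 with fetal bovine serum, which supplies serine and glycine) and one library kit for mRNA, so the libraries represent 1 tumour of origin. The labels call the libraries biological replicates without saying how the cultures were kept apart, and p-values therefore measure the spread between these libraries.

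Cells make serine from a glycolytic intermediate in a pathway of consecutive enzymes: PHGDH oxidises 3-phosphoglycerate, PSAT1 transfers an amino group from glutamate, and PSPH removes the phosphate. Serine hydroxymethyltransferases then split serine into glycine and a one-carbon unit carried by folate, SHMT2 in mitochondria and SHMT1 in the cytosol. In mitochondria MTHFD2 oxidises the carried unit, MTHFD1L releases it as formate for export, and ALDH1L2 can oxidise it to carbon dioxide with formation of NADPH. In the cytosol the trifunctional MTHFD1 recharges folate with formate and supplies units for purines, thymidylate and methionine. ALDH18A1 belongs to proline synthesis rather than to the one-carbon cycle: it converts glutamate to the precursor shared by proline and ornithine. Many of these genes are known targets of ATF4, the transcription factor of the amino acid response.

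Between 14840283 and 17992242 fragments per library were recovered from the table. The epithelial markers KRT8, KRT18, KRT19, EPCAM, SOX9 and CDH1 were expressed, with KRT19 at a mean of 419 FPKM, whereas KRT7, also on the biliary list, averaged 0.533 FPKM. None of 6 macrophage and none of 6 lymphocyte or endothelial markers reached a mean of 1 FPKM, and of 6 fibroblast markers only COL1A1 did (5.70 FPKM). These levels moved with treatment. Of the 6 tested epithelial markers 2 rose after radiation (KRT19 and SOX9), and 4 rose and CDH1 fell after nab-paclitaxel and after the combination. Over all tested genes 2.48%, 5.41% and 12.2% were called higher after radiation, nab-paclitaxel and the combination, and 3.45%, 3.41% and 10.6% lower. After nab-paclitaxel 1 marker rose with TPM scaling and 1 with quantile normalization. After radiation 4 rose with quantile normalization. The counts after the combination were the same under both. The list summed to 719 to 905 FPKM in control libraries, 1104 to 1181 after radiation, 1183 to 1332 after nab-paclitaxel and 1345 to 1702 after the combination. COL1A1 fell by 0.49 after nab-paclitaxel and by 0.59 after the combination (limma adjusted p = 0.01197 and 0.0013). The part of these shifts in the results was not tested. Control 2, nab-paclitaxel 1 and combination 2 stood apart from the other libraries of their groups. On the second principal component of the tested genes, which held 22.0% of the variance, control 2 was at 30.6 and nab-paclitaxel 1 at 28.6, and the other 10 libraries lay between -15.4 and 3.64. Combination 2 was at 3.64, with the rest of its group at -15.4 and -14.0. These libraries also had the highest share of mitochondrially encoded fragments in their groups, 15.8% against 13.2% and 13.5% in control, 14.3% against 11.1% and 12.5% with nab-paclitaxel, and 15.9% against 12.6% and 15.2% in the combination. The radiation libraries, none of which was set apart, were at 16.3%, 15.0% and 16.0%. The part of these differences in the results below was not tested. Counts of called enzymes are therefore given with and without the 3 libraries. Arm sums and ratios, marker counts and counts of the purine, methionine, glycine and proline lists are not given without them. With the 3 libraries left out, 13664 genes passed the filter.

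Promoter windows, from 250 bases before to 50 after a transcript start, were found in the RefSeq table (GRCh38.p14) for 7 of the 10 genes. They were searched on both strands for TGATGNAA, the composite site bound by C/EBP and ATF factors. The motif occurred in 1 of the 7 genes, MTHFD1L, against 1270 of 35116 windows of all genes (3.62%) and 251 of 13336 windows of tested genes (1.88%). Of the 4 listed starts of MTHFD1L, 3 had the same site in their windows, which began 129 and 90 bases before the start in 2 of them and 24 bases after it in the other. The site lies inside the gene as the deposited table bounds it (from position 150865549), under 1 exon of the GENCODE annotation. A stretch of 30 bases around it is shown with the site in capitals (chr6:150866346-150866375, plus strand). Below it stand the bases before PSAT1 (chr9:78296875-78297124, plus strand) and before MTHFD2 (chr2:74198365-74198561, plus strand), the most highly expressed genes of the serine and mitochondrial steps, in which no match was found. These shares count windows, of which a gene can have several. A match describes letters and not binding.
MTHFD1L: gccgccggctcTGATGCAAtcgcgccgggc
PSAT1: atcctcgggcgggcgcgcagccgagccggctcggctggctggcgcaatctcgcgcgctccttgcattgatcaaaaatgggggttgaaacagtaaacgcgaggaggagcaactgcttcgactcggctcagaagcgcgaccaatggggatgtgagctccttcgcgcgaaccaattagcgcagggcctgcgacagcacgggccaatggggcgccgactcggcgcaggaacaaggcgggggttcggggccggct
MTHFD2: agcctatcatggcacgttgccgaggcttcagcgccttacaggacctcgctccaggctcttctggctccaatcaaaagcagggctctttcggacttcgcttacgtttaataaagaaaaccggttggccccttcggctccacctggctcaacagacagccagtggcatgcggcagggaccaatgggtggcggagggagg

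Levels of the 10 genes spanned a wide range. PSAT1 was highest, with a mean of 178 FPKM over the 12 libraries (percentile 99.1 among tested genes), followed by MTHFD2 at 76.0, ALDH18A1 at 38.6, SHMT2 at 28.4, PHGDH at 21.7, PSPH at 18.1, MTHFD1L at 15.1, MTHFD1 at 10.4, SHMT1 at 4.30 and ALDH1L2 at 0.686 FPKM. PSAT1 and MTHFD2 lay above all others in every library. In the control libraries ALDH18A1, SHMT2 and PHGDH overlapped one another, so their order did not exceed the spread. In FPKM, each mitochondrial enzyme lay above its cytosolic counterpart in all 12 libraries, SHMT2 above SHMT1 and MTHFD2 and MTHFD1L above MTHFD1. These orders rest on the gene lengths used, for example 2188 bases for PSAT1, 5021 for MTHFD1L and 9377 for MTHFD1.

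**Figure D1:**
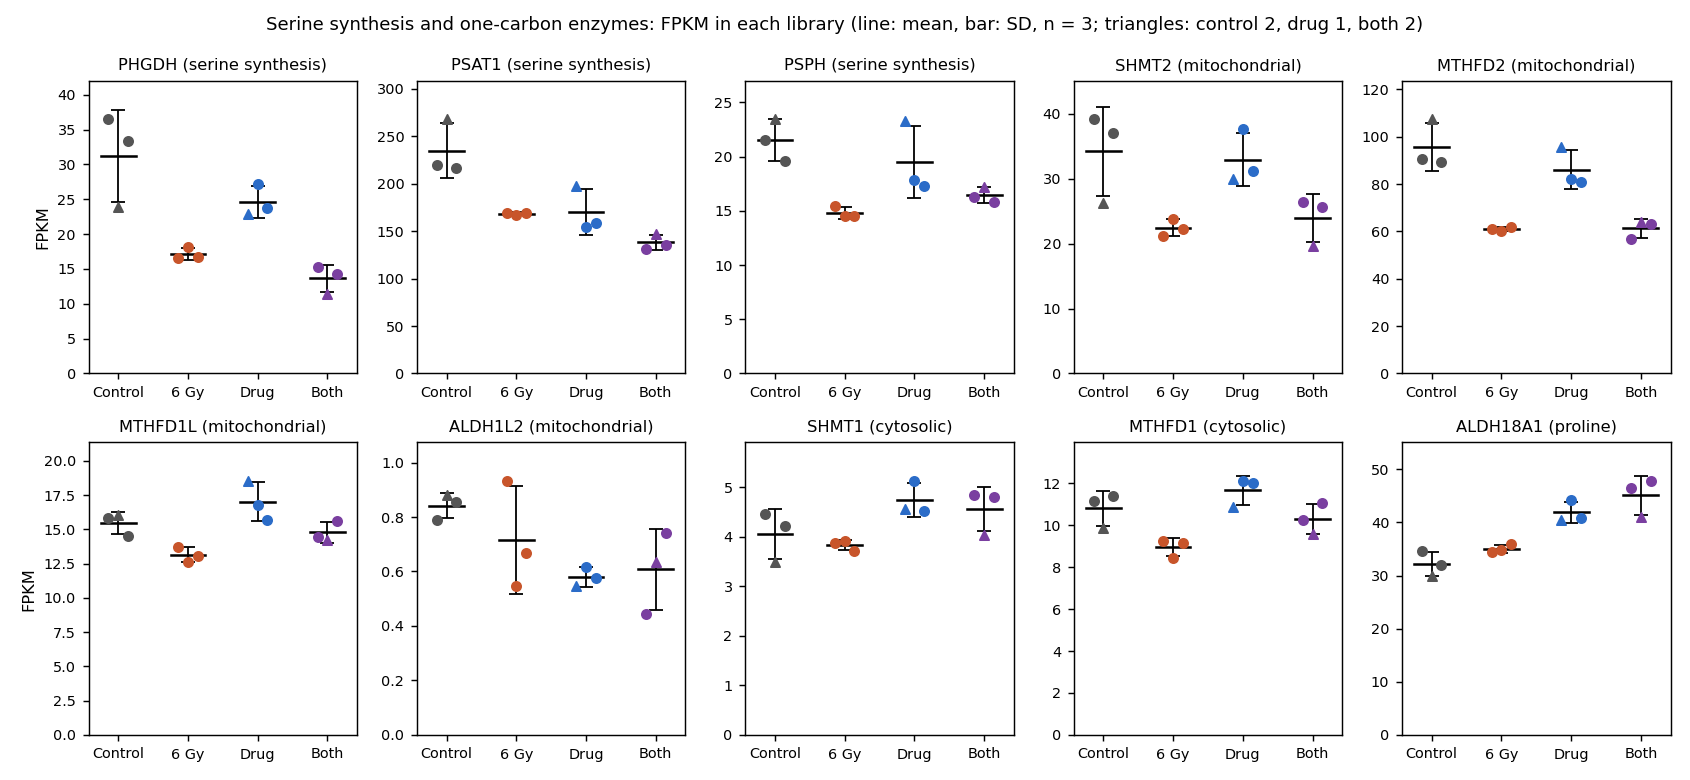
FPKM of each of the 10 enzymes in every library, with 6 Gy for radiation, Drug for nab-paclitaxel and Both for the combination; the line is the group mean, the bar the SD (n = 3) and triangles mark control 2, nab-paclitaxel 1 and combination 2. PHGDH falls from a mean of 31.2 FPKM in control to 13.7 in the combination, while ALDH18A1 goes from 32.2 to 45.1.

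After radiation alone, 4 of the 9 tested genes fell and none rose, with 5.93% of all tested genes called in this comparison (2.48% higher, 3.45% lower). The 4 were PHGDH, PSAT1, PSPH and MTHFD2, so the whole serine synthesis pathway was included and neither cytosolic enzyme. Leaving out control 1 or any 1 radiation library reduced the count to 2, PHGDH and MTHFD2. The median log2 change of the 9 was -0.47, against -0.02 over all tested genes. Calls were made with limma on log2(FPKM + 1), at an adjusted p below 0.05, and fold changes on this scale understate those of low genes. Without the 3 deviating libraries 6 of 9 fell, SHMT2 and MTHFD1 in addition, with 21.6% of all genes called (8.94% higher, 12.6% lower). All radiation libraries lay below all controls for 7 of 9, where 28.4% of all tested genes had groups that did not overlap (12.4% above, 16.0% below).

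After nab-paclitaxel alone, PSAT1 fell and ALDH18A1 rose, 2 of 9, with 8.82% of all tested genes called (5.41% higher, 3.41% lower). The count was 0 without control 3 or nab-paclitaxel 2, and 1 without any 1 radiation library or nab-paclitaxel 3. The median of the 9 was -0.04, against 0.04 over all tested genes. PHGDH fell as well without the 3 libraries, when 3 of 9 and 13.4% of all genes were called (8.71% higher, 4.71% lower). The nab-paclitaxel libraries lay above control for 2 of 9 and below it for 1, and groups did not overlap for 26.1% of all tested genes (15.5% above, 10.6% below).

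After the combination, 5 of 9 fell and 1 rose, with 22.9% of all tested genes called (10.6% lower, 12.2% higher). PHGDH, PSAT1, PSPH, SHMT2 and MTHFD2 fell and ALDH18A1 rose. The median of the 9 was -0.36, against 0.00 over all tested genes. Without the 3 libraries the counts were again 5 and 1, with 36.9% of all genes called (19.8% higher, 17.1% lower). The combination libraries lay below control for 4 of 9 and above it for 1, and groups did not overlap for 37.3% of all tested genes (19.5% above, 17.8% below). These 3 comparisons share the 3 control libraries and are not independent of one another. In cells of one line, fewer cells expressing a gene and less of its RNA per cell cannot be told apart.

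**Figure D2:**
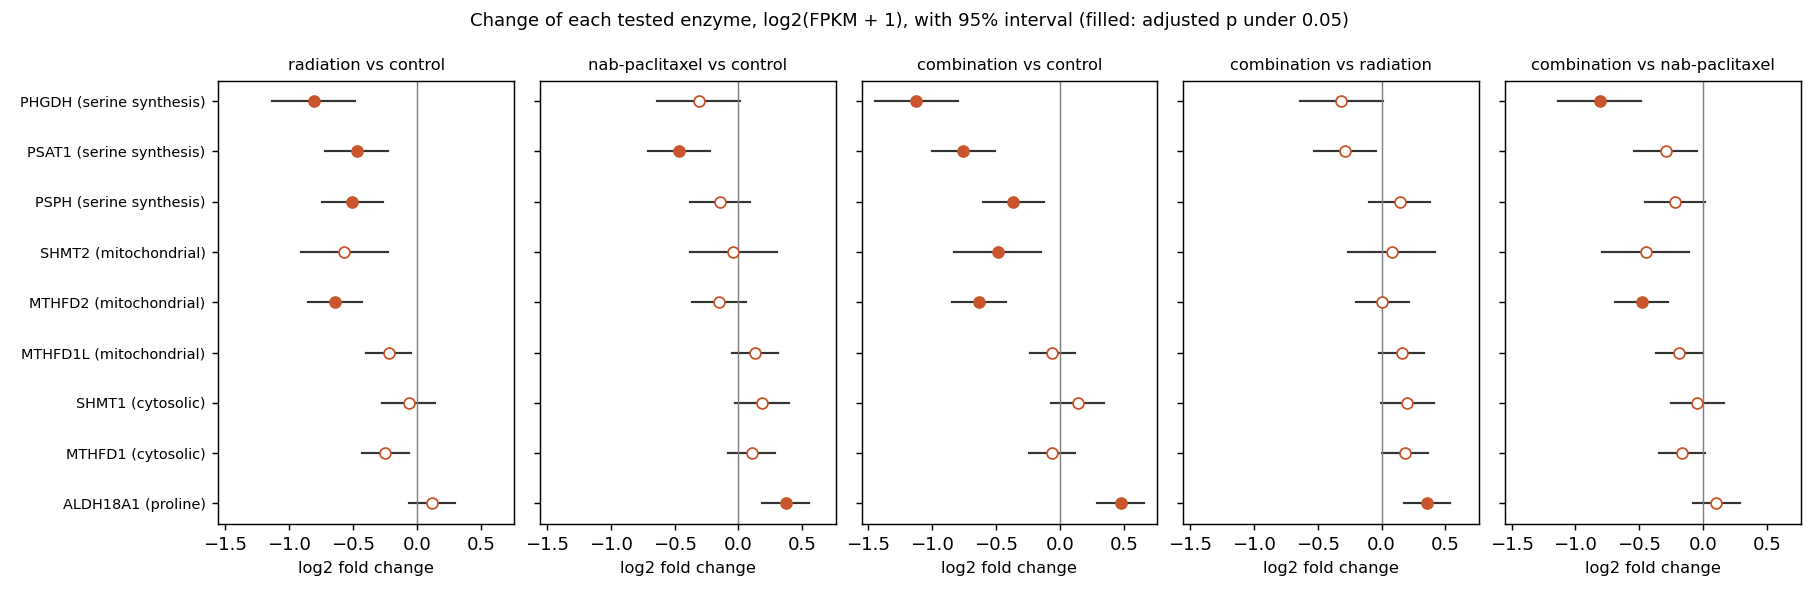
Log2 fold change of each of the 9 tested enzymes on the log2(FPKM + 1) scale with its 95% interval, one panel for each of 5 comparisons; filled points have an adjusted p under 0.05 (limma). Serine synthesis genes and MTHFD2 lie left of 0 after radiation and after the combination. ALDH18A1 lies right of 0 in all 5 panels and is filled in those that add nab-paclitaxel.

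PHGDH (ENSG00000092621, chr1:119648411-119744226 in hg38), which catalyses the committed step of serine synthesis, measured 36.5, 23.9 and 33.3 FPKM in control 1, 2 and 3. Radiation libraries were at 16.6, 18.2 and 16.7 FPKM, nab-paclitaxel libraries at 22.9, 27.3 and 23.8, and combination libraries at 15.2, 11.5 and 14.3. All radiation and combination libraries lay below all control libraries, the combination lay below radiation, and nab-paclitaxel overlapped with control through control 2. From a control mean of 31.2 ± 6.58 FPKM (SD, n = 3), PHGDH fell by 0.81 on the log2 scale after radiation (SE 0.15, limma adjusted p = 0.0091). It fell by 1.12 after the combination (SE 0.15, limma adjusted p = 0.00051), the largest decrease against control among the 9 tested genes, to 0.459 of control in FPKM + 1. These 2 calls held under every alternative setting tried. With nab-paclitaxel alone the log2 difference was -0.31 (95% interval -0.64 to 0.01, limma adjusted p = 0.205), and it was -0.44 (limma adjusted p = 0.0137) without the 3 deviating libraries and called also without control 2 alone (adjusted p = 0.0378).

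PSAT1 (ENSG00000135069, chr9:78297143-78330093), the aminotransferase of the pathway, was at 219.5, 268 and 217 FPKM in control. Values were 169, 167 and 169 FPKM after radiation, 198, 154 and 159 after nab-paclitaxel, and 131, 147 and 136 after the combination. Every treated library lay below every control library, and every combination library below those of either single treatment. With all 12 libraries in the fit, PSAT1 was called lower after each of the 3 treatments, as no other of the 9 genes was. It fell by 0.47 after radiation (SE 0.11, limma adjusted p = 0.0311), by 0.46 after nab-paclitaxel (SE 0.11, adjusted p = 0.0299) and by 0.76 after the combination (SE 0.11, adjusted p = 0.00094). The radiation call was lost without control 1, control 2, any 1 radiation library or combination 3 (adjusted p 0.0535 to 0.115), with no filter (adjusted p = 0.0837) and with quantile normalization (-0.32, adjusted p = 0.129). The nab-paclitaxel call was lost without control 2, control 3, any 1 radiation library, nab-paclitaxel 2 or nab-paclitaxel 3 (adjusted p 0.0506 to 0.0873), with no filter (adjusted p = 0.0809) and with only the groups compared (adjusted p = 0.198). Without the 3 deviating libraries both calls were kept, at -0.37 (adjusted p = 0.00102) and -0.48 (adjusted p = 0.0015).

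PSPH (ENSG00000146733, chr7:56011051-56051604), the phosphatase of the last step, was at 21.5, 23.5 and 19.6 FPKM in control and at 15.4, 14.5 and 14.5 after radiation. It was at 23.3, 17.8 and 17.3 FPKM after nab-paclitaxel and at 16.3, 17.2 and 15.8 after the combination. Radiation and combination libraries lay below all controls, and nab-paclitaxel overlapped with control through nab-paclitaxel 1. PSPH fell by 0.51 after radiation (SE 0.11, limma adjusted p = 0.0193) and by 0.36 after the combination (SE 0.11, adjusted p = 0.0318). Leaving out control 1, control 2 or any 1 radiation library ended the first call (adjusted p 0.0504 to 0.0849). Leaving out control 1, control 2, combination 1 or combination 3 ended the second (adjusted p 0.0727 to 0.104), as did no filter (adjusted p = 0.0731). A partial copy, PSPHP1, was listed with 76 to 284 fragments per library against 690 to 1013 for PSPH, and how the counting divided reads between them is not given in the sources used here. PSPHP1 was at 18.3, 35.4 and 24.6 FPKM in control, 32.9, 25.9 and 30.9 after radiation, 69.1, 30.9 and 35.6 after nab-paclitaxel, and 42.0, 55.5 and 42.0 after the combination, so values of PSPH are uncertain to that extent.

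Among the mitochondrial enzymes, MTHFD2 (ENSG00000065911, chr2:74198562-74217565), the dehydrogenase and cyclohydrolase known for high expression in tumours, measured 90.7, 107 and 89.2 FPKM in control. Radiation libraries were at 61.0, 60.0 and 61.8 FPKM, nab-paclitaxel libraries at 95.5, 82.0 and 80.9, and combination libraries at 56.8, 63.8 and 63.3. The 6 libraries with radiation lay below the 6 without it. MTHFD2 fell by 0.64 after radiation (SE 0.10, limma adjusted p = 0.0038) and by 0.63 after the combination (SE 0.10, adjusted p = 0.0011), and both calls held under every alternative setting tried. The log2 difference with nab-paclitaxel alone was -0.15 (95% interval -0.36 to 0.06, adjusted p = 0.343), called as lower only with quantile normalization.

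SHMT2 (ENSG00000182199, chr12:57229327-57234935), the entry enzyme of the mitochondrial arm, was at 39.1, 26.3 and 37.1 FPKM in control and at 21.2, 23.8 and 22.3 after radiation. Nab-paclitaxel libraries were at 29.9, 37.6 and 31.2 FPKM and combination libraries at 26.4, 19.7 and 25.7. Radiation lay below control, while the combination overlapped with it because combination 1 was slightly above control 2. After radiation the log2 difference was -0.57 (SE 0.16, limma adjusted p = 0.0554), not called, but it was called without control 2, nab-paclitaxel 1 or combination 2 (adjusted p 0.0123 to 0.0472), with voom on fragments or a filter of 5 FPKM, and without all 3 (-0.74, adjusted p = 0.00111). After the combination SHMT2 fell by 0.49 (SE 0.16, adjusted p = 0.0417). That call was lost under 13 of 21 alternative settings, among them leaving out control 1, control 3, any 1 radiation library, nab-paclitaxel 3 or any 1 combination library (adjusted p 0.0544 to 0.136), and was kept without the 3 deviating libraries (-0.53, adjusted p = 0.00274).

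MTHFD1L (ENSG00000120254, chr6:150865549-151101887), the formate-releasing synthetase and the holder of the composite site shown above, was at 15.8, 16.1 and 14.5 FPKM in control. It measured 13.7, 12.6 and 13.05 FPKM after radiation, 18.6, 16.8 and 15.7 after nab-paclitaxel, and 14.5, 14.2 and 15.7 after the combination. Only the radiation libraries lay apart from control, below it, and no comparison with control was called. The log2 differences from control were -0.22 (limma adjusted p = 0.152) with radiation, 0.13 (adjusted p = 0.334) with nab-paclitaxel and -0.06 (95% interval -0.24 to 0.12, adjusted p = 0.631) with the combination.

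ALDH1L2 (ENSG00000136010, chr12:105019784-105084577) was the lowest of the 10, with 67 to 134 fragments per library. Its values were 0.790, 0.880 and 0.855 FPKM in control, 0.934, 0.546 and 0.668 after radiation, 0.545, 0.618 and 0.575 after nab-paclitaxel, and 0.445, 0.636 and 0.741 after the combination. Nab-paclitaxel and combination libraries lay below all controls, and radiation 1 was the highest of all 12. In a fit with no filter, over 38818 genes, the log2 differences from control were -0.11, -0.22 and -0.20 for radiation, nab-paclitaxel and the combination (limma adjusted p = 0.745, 0.451 and 0.412). The opposite-strand gene C12orf45 overlaps it at 1.43 FPKM, and whether counting used the strand is not given in the sources used here.

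Neither cytosolic enzyme was called in a comparison with control. SHMT1 (ENSG00000176974, chr17:18327860-18363563) was at 4.47, 3.50 and 4.22 FPKM in control, 3.87, 3.92 and 3.71 after radiation, 4.57, 5.14 and 4.52 after nab-paclitaxel, and 4.84, 4.05 and 4.80 after the combination. Its nab-paclitaxel libraries lay above all controls, and the other treated groups overlapped with control. The log2 differences were -0.06 with radiation (95% interval -0.27 to 0.15, limma adjusted p = 0.796), 0.18 with nab-paclitaxel (-0.02 to 0.39, adjusted p = 0.240) and 0.14 with the combination (-0.07 to 0.35, adjusted p = 0.323). The intervals reach down to -0.27 with radiation and up to 0.39 and 0.35 with nab-paclitaxel and the combination. They therefore do not show that SHMT1 was unaffected. The gene SMCR8, at 5.87 FPKM, overlaps SHMT1 on the other strand.

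MTHFD1 (ENSG00000100714, chr14:64388031-64463457), the trifunctional cytosolic enzyme, was at 11.2, 9.87 and 11.4 FPKM in control and at 9.26, 8.46 and 9.15 after radiation. Nab-paclitaxel libraries were at 10.9, 12.1 and 12 FPKM and combination libraries at 10.3, 9.61 and 11.1. The radiation libraries lay below every other library in the series. The log2 difference between radiation and control was -0.25 (SE 0.08, limma adjusted p = 0.117) and was called only without the 3 deviating libraries (-0.30, adjusted p = 0.00831). With the combination the difference was -0.06 (95% interval -0.25 to 0.12, adjusted p = 0.625). ZBTB25, at 2.82 FPKM, overlaps MTHFD1 on the other strand.

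ALDH18A1 (ENSG00000059573, chr10:95605929-95656706), the proline enzyme, moved in the opposite direction. It was at 34.6, 29.97 and 32.1 FPKM in control and at 34.4, 34.7 and 35.9 after radiation. Nab-paclitaxel libraries were at 40.5, 44.2 and 40.9 FPKM and combination libraries at 46.6, 41.0 and 47.9. The 6 libraries with nab-paclitaxel lay above the 6 without it. ALDH18A1 rose by 0.37 with nab-paclitaxel (SE 0.08, limma adjusted p = 0.0225) and by 0.47 with the combination (SE 0.08, adjusted p = 0.0025), and rose by 0.35 when the combination was set against radiation (SE 0.08, adjusted p = 0.0284). The first call was lost without control 3 or nab-paclitaxel 2 (adjusted p 0.0616 to 0.0701) and with TPM scaling, quantile normalization or only the groups compared in the fit. The third was lost without any 1 radiation library, combination 1 or combination 3 (adjusted p 0.0827 to 0.124), and under both rescalings. The combination call against control held under every alternative setting.

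Comparisons among the treated groups set the drug and the radiation side by side. When the combination was compared with nab-paclitaxel, PHGDH fell by 0.81 (SE 0.15, limma adjusted p = 0.0124) and MTHFD2 by 0.48 (SE 0.10, adjusted p = 0.0189), 2 of 9 genes, with 3.92% of all tested genes called (1.21% higher, 2.70% lower). The MTHFD2 call was lost without combination 1 or combination 3 (adjusted p 0.0630 to 0.0795), and with only the groups compared. The PHGDH call was lost with TPM scaling (adjusted p = 0.0515). Without the 3 deviating libraries 4 of 9 fell, PSAT1 and SHMT2 in addition, with 9.46% of all genes called (3.70% higher, 5.75% lower). The combination lay below nab-paclitaxel for 6 of 9, and groups did not overlap for 20.9% of all tested genes (8.66% above, 12.3% below). When the combination was compared with radiation, ALDH18A1 was the 1 of 9 called, with 7.75% of all tested genes called (4.81% higher, 2.95% lower). PHGDH and PSAT1 differed there by -0.32 (adjusted p = 0.209) and -0.29 (adjusted p = 0.139), and all 3 combination libraries lay below the radiation libraries for both. With TPM scaling or quantile normalization the 1 gene called was PSAT1, as lower, and not ALDH18A1: PSAT1 differed by -0.34 and -0.48 (adjusted p = 0.0258 and 0.0347) and ALDH18A1 by 0.31 and 0.19 (adjusted p = 0.172 and 0.233). PSAT1 was called lower also with only the groups compared (adjusted p = 0.0202) and without the 3 deviating libraries (-0.33, adjusted p = 0.0014). In the latter fit SHMT1, MTHFD1 and ALDH18A1 rose, so that 4 of 9 were called, with 30.1% of all genes called (18.7% higher, 11.5% lower). MTHFD2 differed by 0.01 (95% interval -0.20 to 0.22). The combination lay above radiation for 5 of 9 and below it for 2, and groups did not overlap for 40.5% of all tested genes (23.9% above, 16.5% below).

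Radiation was lower than nab-paclitaxel for 6 of 9 genes, PHGDH, PSPH, SHMT2, MTHFD2, MTHFD1L and MTHFD1, with 16.1% of all tested genes called (5.58% higher, 10.6% lower). PSAT1, by contrast, had means of 168 ± 1.36 and 170.2 ± 24.2 FPKM (SD, n = 3) and a log2 difference of -0.01 (95% interval -0.25 to 0.24). That difference depended on scaling, at 0.35 with quantile normalization (limma adjusted p = 0.0760) and 0.04 with TPM scaling (adjusted p = 0.773). Without the 3 deviating libraries it was 0.11 (adjusted p = 0.0766). The largest of the 6 called differences were -0.53 for SHMT2 (limma adjusted p = 0.0396), -0.49 for PHGDH (adjusted p = 0.0427) and -0.49 for MTHFD2 (adjusted p = 0.0074). The number called depended on scaling: it was 3 after rescaling to TPM and 0 after quantile normalization. It was 1 without radiation 2 or radiation 3, 2 without radiation 1, and 3 without nab-paclitaxel 1, nab-paclitaxel 2 or combination 3. The MTHFD2 call was kept without any 1 library, MTHFD1L was lost without radiation 2 or 3, and MTHFD1 without any 1 radiation library or nab-paclitaxel 2. Calls of SHMT2 were lost without any 1 radiation or nab-paclitaxel library or combination 3, and those of PHGDH also without control 3. PSPH was lost without control 1, nab-paclitaxel 1 or any 1 radiation or combination library. Adjusted p in these fits ran up to 0.1304. Without the 3 deviating libraries 8 of 9 were lower, with 29.9% of all genes called (10.2% higher, 19.7% lower). Radiation lay below nab-paclitaxel for 8 of 9, and groups did not overlap for 42.5% of all tested genes (15.8% above, 26.7% below).

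The interaction, which asks whether the effect of the drug differed with radiation, was called for none of the 9 genes and none of all tested genes by limma (0%). At an unadjusted p below 0.05 it held 443 genes with all 12 libraries in the fit, none of them among the 9. The estimates were 0.29 for PSPH (95% interval -0.05 to 0.62), 0.18 for PSAT1 (-0.17 to 0.53) and -0.005 for PHGDH (-0.46 to 0.45), where 0 stands for effects that add on the log2 scale. Each of these intervals is wider than the single effects of its gene, so they do not show that effects added. Without the 3 deviating libraries no gene was called for the interaction either (0%). The estimates there were 0.32 for PSPH (SE 0.08), 0.15 for PSAT1 (SE 0.06) and 0.23 for PHGDH (SE 0.11). SHMT2 was the largest, at 0.36 (SE 0.12), against 0.12 with all 12 libraries. The lowest limma adjusted p of the 9 was 0.386, for PSPH.

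Ratios within a library show the balance between the mitochondrial and cytosolic arms without dependence on library scaling. Their size rests on the gene lengths used for FPKM. The SHMT2 to SHMT1 ratio was 8.77, 7.52 and 8.77 in control, 6.55, 7.32 and 6.90 after nab-paclitaxel, 5.48, 6.07 and 6.01 after radiation, and 5.45, 4.87 and 5.35 after the combination. No 2 groups overlapped, and the order ran from control through nab-paclitaxel and radiation to the combination. The MTHFD2 to MTHFD1 ratio was 8.13, 10.9 and 7.82 in control, 6.59, 7.09 and 6.76 after radiation, 8.77, 6.76 and 6.74 after nab-paclitaxel, and 5.54, 6.64 and 5.73 after the combination. Radiation and the combination lay below control, whereas nab-paclitaxel overlapped with control and with radiation. In contrast, the MTHFD1L to MTHFD1 ratio, looked at after the values were seen, had means of 1.44, 1.47, 1.47 and 1.44 in control, radiation, nab-paclitaxel and the combination, with SDs of 0.180, 0.0370, 0.210 and 0.0392, and no order.

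Summed over the arm, the 4 mitochondrial enzymes held 146 ± 4.53 FPKM in control, 97.2 ± 0.524 after radiation, 137 ± 8.10 after nab-paclitaxel and 101 ± 4.17 after the combination (SD, n = 3). The 2 cytosolic enzymes held 14.9 ± 1.30, 12.8 ± 0.379, 16.4 ± 0.914 and 14.9 ± 1.12 FPKM in the same order. Their ratio had means of 9.90 ± 1.198, 7.61 ± 0.228, 8.35 ± 0.869 and 6.78 ± 0.371. Individual values were 9.38, 11.3 and 9.06 in control, 7.38, 7.84 and 7.61 after radiation, 9.35, 7.93 and 7.77 after nab-paclitaxel, and 6.50, 7.20 and 6.65 after the combination. The combination lay below each other group, and radiation below control. MTHFD2 made up group means of 60.9% to 65.4% of the mitochondrial sum, so the sum largely followed that gene. As scores over chosen genes these ratios were not tested.

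**Figure D3:**
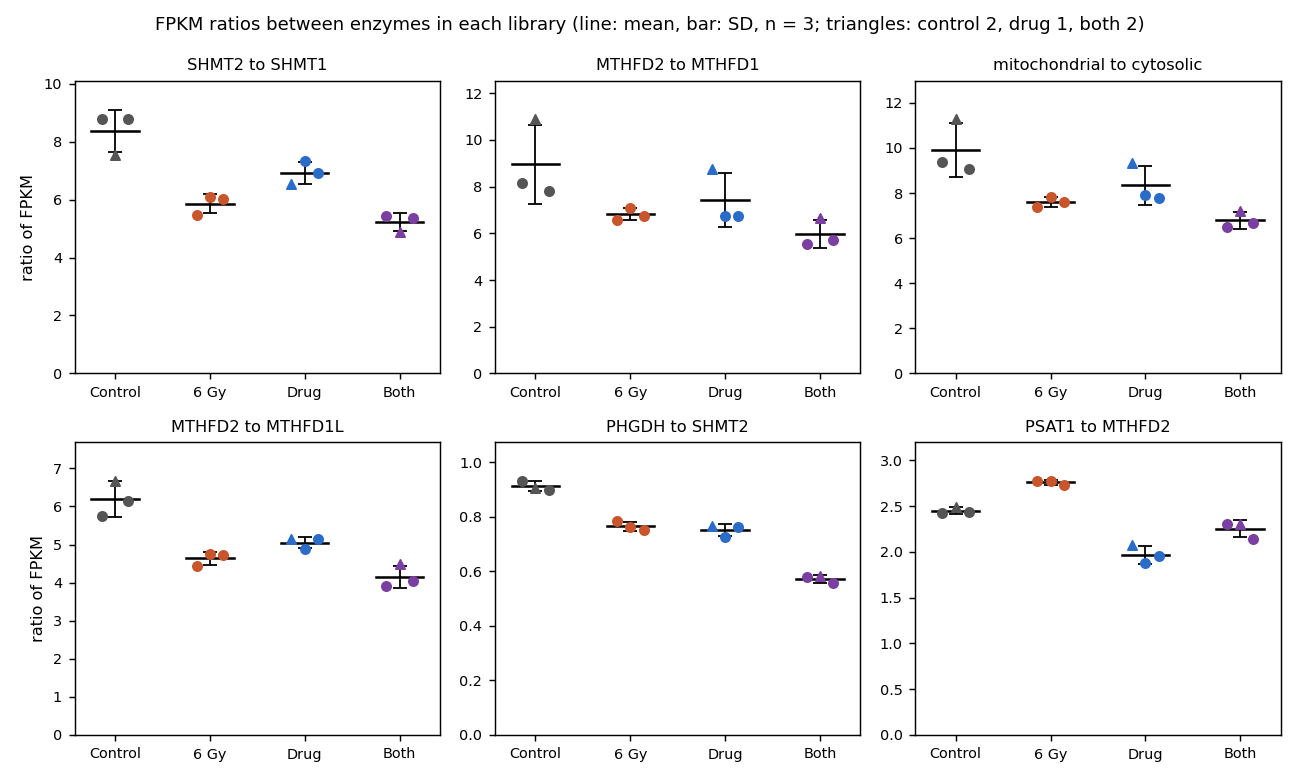
Ratios of FPKM between enzymes in each library, with 6 Gy for radiation, Drug for nab-paclitaxel and Both for the combination; the line is the group mean, the bar the SD (n = 3) and triangles mark control 2, nab-paclitaxel 1 and combination 2. SHMT2 to SHMT1 goes from a mean of 8.35 in control to 5.22 in the combination, and the 4 groups do not overlap.

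The members also differed in how they varied between libraries of one group. In control 2, nab-paclitaxel 1 and combination 2, PSAT1, PSPH and MTHFD2 were the highest of their group and PHGDH, SHMT2, MTHFD1 and ALDH18A1 the lowest. MTHFD1L was the highest in the first 2 of these and the lowest in combination 2. Deviations of log2(FPKM + 1) from the group mean correlated over the 12 libraries at Pearson r = 0.99 for PHGDH and SHMT2, 0.97 for SHMT1 and SHMT2, and 0.95 for PSAT1 and MTHFD2. By contrast, r was -0.81 for PHGDH and PSAT1, which catalyse consecutive steps. Within PHGDH, SHMT2, SHMT1, MTHFD1 and ALDH18A1 all 10 pairs had a positive r (0.68 to 0.99), and within PSAT1, PSPH, MTHFD2 and MTHFD1L all 6 pairs did (0.59 to 0.95). Between these sets, which were drawn up after the values were seen, 1 of 20 pairs was above 0 (range -0.82 to 0.10). The points share library, depth and scaling, so the values are a description.

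**Figure D4:**
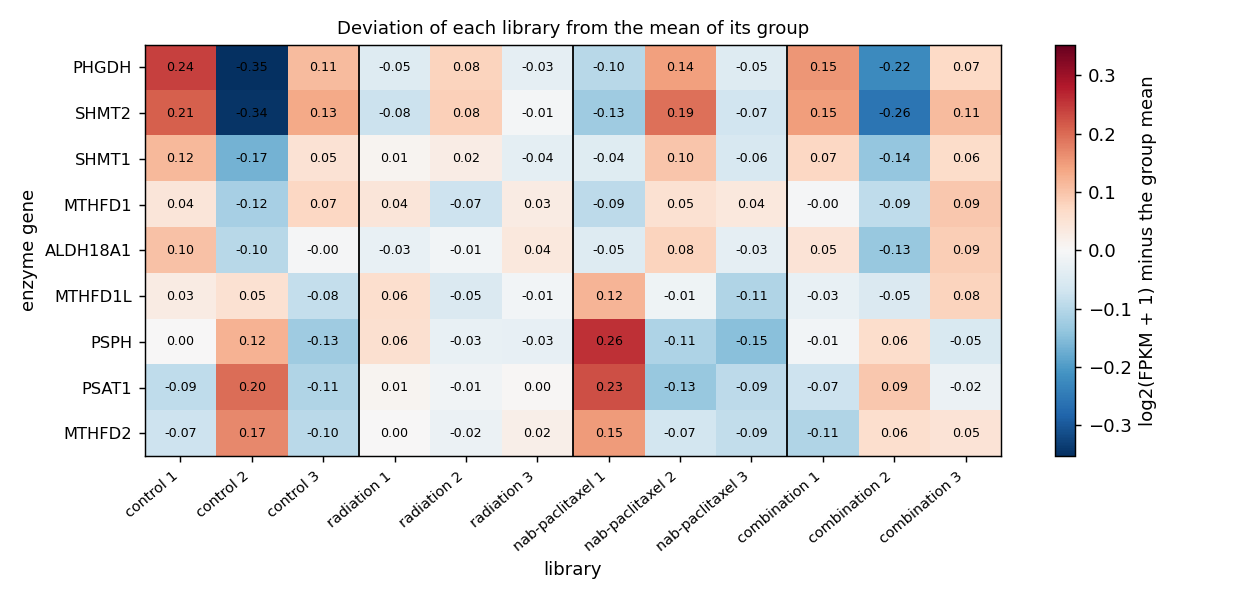
Deviation of each library from the mean of its group on the log2(FPKM + 1) scale for the 9 tested enzymes, one row per gene and one column per library, with the value in each cell. Control 2 ranges from -0.35 for PHGDH to 0.20 for PSAT1, and in nab-paclitaxel 1 and combination 2 every gene but MTHFD1L has the same sign as in control 2; MTHFD1L is at 0.05, 0.12 and -0.05 in control 2, nab-paclitaxel 1 and combination 2.

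Ratios of genes that deviated together were chosen after the values were seen, so their small spread within groups follows from that choice. How many other pairs of genes separate the groups was not counted. PHGDH to SHMT2 was 0.933, 0.906 and 0.898 in control, 0.783, 0.764 and 0.750 after radiation, 0.764, 0.725 and 0.762 after nab-paclitaxel, and 0.577, 0.583 and 0.556 after the combination. Control was highest and the combination lowest with no overlap, and the single treatments overlapped with each other. PSAT1 to MTHFD2 was 2.42, 2.49 and 2.43 in control, 2.78, 2.78 and 2.73 after radiation, 2.07, 1.88 and 1.96 after nab-paclitaxel, and 2.31, 2.31 and 2.15 after the combination. Here radiation was highest and nab-paclitaxel lowest, and no 2 groups overlapped.

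Other genes of the pathway were counted from fixed lists. Of 16 genes of the folate cycle and folate transport, 13 were tested. The folate carrier SLC19A1 fell by 0.39 after the combination (limma adjusted p = 0.0238). MTFMT, the mitochondrial formyltransferase, rose by 0.41 after nab-paclitaxel (adjusted p = 0.0488) and by 0.37 after the combination (adjusted p = 0.0385). SLC19A1 and MTFMT are named after their values were seen, and the alternatives were not run for them. TYMS, the thymidylate synthase, was called in no comparison with control (-0.36, 0.37 and -0.08 for radiation, nab-paclitaxel and the combination).

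All 6 genes of de novo purine synthesis, which uses formyl groups from the cytosolic arm, were tested. After radiation 2 of 6 fell, GART by 0.29 (limma adjusted p = 0.0394) and PAICS by 0.37 (adjusted p = 0.0468). Over all tested genes 3.45% were called lower. The list's median was -0.25, against -0.02 over all tested genes. Neither comparison with nab-paclitaxel alone nor with the combination against control called any. PAICS was at 33.4, 37.7 and 31.9 FPKM in control, 27.2, 24.9 and 26.8 after radiation, 44.7, 37.2 and 39.0 after nab-paclitaxel, and 30.9, 35.0 and 36.05 after the combination, with radiation below all other libraries. Both radiation calls were lost under 14 of 21 alternative settings. Leaving out any 1 library other than control 3 and nab-paclitaxel 1 ended that of GART (adjusted p 0.0529 to 0.153), and any 1 other than nab-paclitaxel 1 that of PAICS (0.0515 to 0.1798).

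Of 14 genes of the methionine cycle and transsulfuration, 11 were tested. After radiation 1 of 11 fell, after nab-paclitaxel none was called, and after the combination 2 rose and 1 fell, beside 5.93%, 8.82% and 22.9% of all tested genes called. The medians were -0.0038, 0.08 and 0.11, against -0.02, 0.04 and 0.00 over all tested genes. MTAP, the salvage enzyme of methylthioadenosine, was the 1 that fell after radiation, by 0.72 (SE 0.09, limma adjusted p = 0.0016), and it fell by 0.49 after the combination (SE 0.09, adjusted p = 0.0038). Its values were 12.2, 14.9 and 11.8 FPKM in control, 7.10, 7.56 and 7.61 after radiation, 13.8, 12.2 and 12.6 after nab-paclitaxel, and 8.92, 9.41 and 8.35 after the combination. As with MTHFD2, the libraries with radiation lay below those without it. AHCYL1 and AHCYL2, relatives of adenosylhomocysteinase, rose after the combination by 0.40 and 0.33 (adjusted p = 0.0046 and 0.0146). The AHCYL2 call was lost without control 1, control 3 or combination 2 (adjusted p 0.0503 to 0.05596), and with only the groups compared.

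Of 10 genes of glycine cleavage and of serine or glycine use, 6 were tested. None was called after radiation, 2 rose after nab-paclitaxel and 1 after the combination, where 5.41% and 12.2% of all tested genes were called higher. The list's medians were -0.04, 0.34 and 0.22, against -0.02, 0.04 and 0.00 over all tested genes. Serine racemase (SRR) rose by 0.54 and 0.43 in these comparisons (limma adjusted p = 0.0298 and 0.0334). Leaving out control 1, control 3 or nab-paclitaxel 1 ended the first call (adjusted p 0.0627 to 0.0839), and control 1, control 3 or any 1 combination library the second (0.07501 to 0.0933). Both calls were lost with no filter, and the first also with only the groups compared. GCAT, which cleaves the threonine product to glycine, rose by 0.45 after nab-paclitaxel (adjusted p = 0.04995), a call lost under 17 of 21 alternative settings, among them leaving out any 1 control, radiation or nab-paclitaxel library or combination 3 (0.0645 to 0.117). Of 7 genes of proline and ornithine metabolism, which share the product of ALDH18A1, 5 were tested, and 1 rose after nab-paclitaxel and after the combination (5.41% and 12.2% of all tested genes). OAT, the ornithine aminotransferase, was at 47.8, 55.0 and 42.6 FPKM in control and at 74.5, 78.5 and 74.3 after the combination, a rise of 0.64 (SE 0.11, adjusted p = 0.0026). It rose by 0.43 after nab-paclitaxel (adjusted p = 0.0424), a call lost under 14 of 21 alternative settings, among them leaving out any 1 library other than control 2 and nab-paclitaxel 3 (adjusted p 0.0514 to 0.1298). No other gene of this list was called against control.

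ATF4 and 13 of its known targets outside the pathway formed the last list, of which 12 were tested. After radiation 5 fell and 1 rose, after nab-paclitaxel 5 fell and 1 rose, and after the combination 11 fell and 1 rose. Of all tested genes 5.93%, 8.82% and 22.9% were called in these comparisons (3.45%, 3.41% and 10.6% lower). ASNS, TRIB3, PCK2 and CEBPG fell in all 3 comparisons, DDIT4 also after radiation and STC2 also after nab-paclitaxel, the last 3 named after their values were seen. Without the 3 deviating libraries 11, 6 and 11 fell and 1 rose in each, with 21.6%, 13.4% and 36.9% of all genes called. With TPM scaling 3, 3 and 7 fell. The list's medians were -0.41, -0.31 and -0.60, against -0.02, 0.04 and 0.00 over all tested genes. ASNS, the asparagine synthetase, was at 11.98, 15.5 and 12.5 FPKM in control, 9.46, 9.54 and 8.69 after radiation, 4.65, 6.14 and 6.41 after nab-paclitaxel, and 4.84, 5.02 and 5.22 after the combination. Every treated library lay below the controls. ASNS fell by 0.48 after radiation (limma adjusted p = 0.0335), by 1.09 after nab-paclitaxel (SE 0.12, adjusted p = 0.00082) and by 1.24 after the combination (SE 0.12, adjusted p = 8.6e-05). The radiation call was lost without control 2, control 3, any 1 radiation library, combination 1 or combination 3 (adjusted p 0.0515 to 0.1301). No filter, TPM scaling and only the groups compared ended it as well. The nab-paclitaxel call was lost with only the groups compared (adjusted p = 0.0621). TRIB3, a pseudokinase, fell by 1.397 after the combination (SE 0.10, adjusted p = 1.7e-05) and PCK2, the mitochondrial PEP carboxykinase, by 1.04 (SE 0.10, adjusted p = 7.9e-05). After nab-paclitaxel alone TRIB3 fell by 0.51 (adjusted p = 0.0149), a call lost without control 3 (adjusted p = 0.0531) and with only the groups compared (adjusted p = 0.1498). PCK2 fell there by 0.43 (adjusted p = 0.0222), a call lost without control 1, control 3 or nab-paclitaxel 2 (adjusted p 0.0540 to 0.0749), with TPM scaling (0.0813) and with only the groups compared (0.162). With all 12 libraries in the fit, ATF4 itself was called against control only after the combination, where it fell by 0.50 (limma adjusted p = 0.0065). ATF3 rose in each comparison with control, by 0.56, 0.40 and 0.69, and the nab-paclitaxel call was lost with TPM scaling, quantile normalization or only the groups compared. TGATGNAA was found in windows of 4 of the 13 genes of this list with a RefSeq promoter window, ASNS, CHAC1, ATF3 and CEBPG. Among all windows 3.62% held it, and 1.88% of those of tested genes. These are shares of windows and not of genes, so the 2 measures are not alike. The motif was found also in AHCYL2, 1 of 12 genes of the methionine list, and in no gene of the folate, glycine, purine and proline lists.

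**Figure D5:**
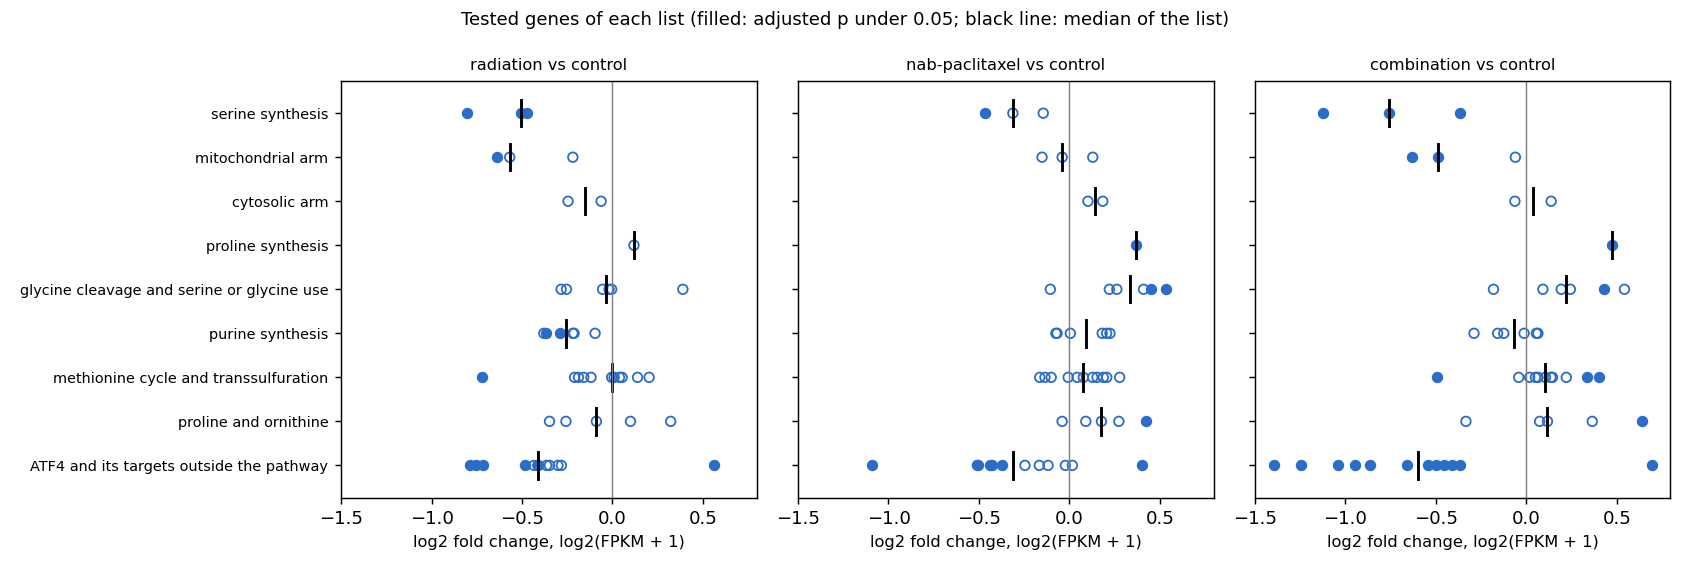
Log2 fold change on the log2(FPKM + 1) scale of each tested gene of the enzyme groups and of 5 further lists (folate genes not plotted), in the 3 comparisons with control; filled points have an adjusted p under 0.05 (limma) and the black line is the median of the list. In the combination panel 11 of 12 genes of the ATF4 list are filled and left of 0, and 1, ATF3, is filled and right of 0.

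The tested genes most like each arm were ranked by Pearson r over the 12 libraries with the arm's mean z score. For serine synthesis they were SARS (r = 0.97), the seryl-tRNA synthetase, followed by ESRP1, CENPJ, NLRP11 and GNB5 (0.97 to 0.96). For the mitochondrial arm those reported are NONO (0.98), IER3, RPN1 and TMBIM6 (0.97). For the cytosolic arm they were CLDN4 (0.97), CPNE2, G6PC3, NOB1 and H1F0 (0.96). The 12 points share the group structure, so these values are a description of likeness in this series.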

How the data were processed

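Messenger RNA of TFK1 cells was sequenced in 12 libraries, 3 for each of 4 groups taken from the labels. The authors deposited 1 table of FPKM values with 58735 genes, per the file headers. The reference was hg38, per the submitters' processing notes, with the aligner, counter, strand setting and gene length definition not given in the sources used. FPKM times gene length gave whole multiples of 1 step for 100.0% of genes in each library (within 0.05), from which fragments were recovered (14840283 to 17992242 per library).

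Values were tested as log2(FPKM + 1) by limma (version 3.58.1, R version 4.3.3), allowing for a trend of variance with level. Genes averaging 1 FPKM or more entered (13609). All 12 libraries shared 1 estimate of the spread (8 residual degrees of freedom), with no replicate block. Tests were two-sided, adjusted by Benjamini-Hochberg over all tested genes within each of 7 contrasts, at 0.05, and were tested on simulated data. No fit was made on the 10 genes alone. Between same-numbered libraries, r of deviations ran from -0.49 to 0.54 over 18 pairs (median -0.08). Between differently numbered ones it ran from -0.40 to 0.46 over 36 pairs (median 0.05). Ranges this wide do not settle whether replicate numbers pair the libraries. No column of other samples was present.

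All 10 genes are named, and of each further list up to 4 genes with the smallest p in any contrast. ATF4, CEBPG, DDIT4, STC2, SLC19A1, MTFMT and the overlapping or copied genes were named after their values were seen. Some genes picked this way, and whole-list counts for folate genes, are not reported here. The members, lists and the 3 deviating libraries were chosen with earlier results of these data known. Alternatives were a pseudocount of 0.1, no filter or a filter of 5 FPKM, TPM scaling, quantile normalization, the replicate block, only the groups compared, voom on fragments, each library left out, and the 3 deviating libraries left out. Promoter sequences are RefSeq's (GRCh38.p14), and exons were taken from GENCODE.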

Additional observations from a re-analysis of the deposited data

How the results depend on the processing

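Under 21 alternative settings, 63 log2 changes of the tested enzymes gave 1307 values. Of these, 1181 kept their side of the threshold, 104 lost a call, 22 gained one and 0 reversed the direction of a call. The 1181 include changes of sign where neither fit made a call. Examples are PSAT1 in radiation against nab-paclitaxel (-0.006, up to 0.35) and MTHFD2 in combination against radiation (0.007, down to -0.20). The calls of PHGDH and MTHFD2 after radiation and after the combination, of PSAT1 after the combination and of ALDH18A1 after the combination were kept in all settings. Of 48 calls among 24 genes of the further lists, 25 were kept in all, and 1 reversed (MAT2A in radiation against nab-paclitaxel, 0.036 with quantile normalization). The cause of these shifts was not tested. Replicate numbers tie the libraries to nothing in the labels. The replicate block ended the calls of PSAT1 after radiation and after nab-paclitaxel, SHMT2 after the combination, MTHFD2 in combination against nab-paclitaxel, ALDH18A1 in combination against radiation, and PHGDH and SHMT2 in radiation against nab-paclitaxel.

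Enzymes called with nab-paclitaxel against control numbered 1 with no filter, with TPM scaling or with the replicate block, and 0 with only the groups compared. Combination against radiation called 2 with only the groups compared, 0 with the block and 4 without the 3 deviating libraries. Combination against nab-paclitaxel called 1 with TPM scaling, only the groups compared or the block, and 4 without the 3 libraries. Radiation against nab-paclitaxel called 3 with no filter or TPM scaling and 0 with quantile normalization.

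Over all genes, the replicate block gave 531 calls for radiation and 701 for nab-paclitaxel against control, 606 for combination against radiation and 306 for combination against nab-paclitaxel. No filter gave 579, 577 and 276 for the last 3 of these, and only the groups compared 8, 2502 and 93. For nab-paclitaxel against control, TPM scaling gave 771 calls and quantile normalization 789 (381 higher and 408 lower, against 736 and 464). For combination against radiation the split of 654 higher and 401 lower became 355 and 359 with TPM scaling; for combination against nab-paclitaxel 165 and 368 became 196 and 273 with quantile normalization, and for radiation against nab-paclitaxel 760 and 1436 became 756 and 786. A filter of 5 FPKM gave 2018 for the combination against control. The interaction gave 5 with no filter and 1 with TPM scaling. Without the 3 deviating libraries the counts were 2945, 1834 and 5038 for radiation, nab-paclitaxel and the combination against control, 4116 and 1292 for the combination against radiation and nab-paclitaxel, and 4087 for radiation against nab-paclitaxel.

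With each library left out in turn, enzymes called ranged from 2 to 5 for radiation, 0 to 2 for nab-paclitaxel and 4 to 6 for the combination against control, 0 to 1 and 1 to 2 for the combination against radiation and nab-paclitaxel, 1 to 7 for radiation against nab-paclitaxel, and 0 for the interaction. All genes called ranged from 320 to 1305, 520 to 1181, 1953 to 3933, 215 to 1883, 176 to 732 and 938 to 2806 in the same order, and 0 for the interaction. The ratio of mitochondrial to cytosolic FPKM ranged from 9.22 to 10.3 in control, 7.49 to 7.72 after radiation, 7.85 to 8.64 after nab-paclitaxel and 6.57 to 6.93 in the combination.

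With 3 libraries a group, differences within the spread between libraries were not detectable, and ALDH1L2 (67 to 134 fragments) lay under the filter. The interaction was not fitted with only the groups compared, and SHMT1 was not tested with a filter of 5 FPKM.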
